A study of Mus musculus with 6 samples.

Results

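The expression of 10 genes of the unfolded protein and integrated stress responses was followed in RNA from mouse liver macrophages. They were taken by their deposited gene name, and all 10 were among the 14918 genes of the table. They comprise the transcription factors Atf4, Ddit3 (CHOP) and Xbp1, the feedback regulators Ppp1r15a (GADD34) and Trib3, the degradation factor Herpud1, and Manf, Sdf2l1, Creld2 and Calr, which work in the lumen of the endoplasmic reticulum (ER). C57BL/6 mice of about 6 weeks were put on a high fat diet or a normal diet for 18 weeks, and 3 libraries were made per diet, numbered here in the order of deposition. No transgene, deletion or drug is named for either group. The sources used here give neither the isolation of the macrophages nor the composition of the diets.

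The ER folds secreted and membrane proteins. When unfolded proteins build up there, the sensors IRE1, PERK and ATF6 are activated. IRE1 splices Xbp1 mRNA into the form that encodes the active factor, ATF6 is cut in the Golgi to release another factor, and PERK phosphorylates eIF2 alpha. That last step, shared with kinases that sense viral RNA, amino acid shortage and haem shortage, lowers translation in general while raising that of Atf4, and is called the integrated stress response. ATF4 induces Ddit3, Trib3 and Ppp1r15a, and GADD34 brings a phosphatase to eIF2 alpha and so restores translation. The table holds 1 count per gene, so Xbp1 splicing, translation of Atf4 and phosphorylation were not analysed here.

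On the high fat diet 9 of the 10 genes stood lower, and none passed an adjusted p of 0.05 in edgeR's quasi-likelihood test, the main test. The largest differences were in Ppp1r15a, 1.71-fold lower, and Ddit3, 1.52-fold lower, followed by Manf at 1.36-fold. Their edgeR adjusted p-values were 0.0517, 0.0578 and 0.0834. Trib3 was the exception, 1.16-fold higher with an adjusted p of 0.707. Of the 14361 genes tested, 0.863% passed this threshold, and 0.223% passed it with a lower level on the high fat diet. At an unadjusted p under 0.05 in edgeR, 4 of the 10 stood lower (Ppp1r15a, Ddit3, Manf and Xbp1) and none higher, and 8.5% of all genes tested stood lower by that rule.

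DESeq2 on the same counts called Ppp1r15a, Ddit3 and Manf lower, 3 of the 10, where it called 3.32% of all genes lower. The authors' deposited table gives the same 3 genes an adjusted p under 0.05 (2.53e-05, 0.00121 and 0.00911), and 3.02% of its genes are lower by that rule. Limma voom called none of the 10, with an adjusted p of 0.0593 for Ppp1r15a. These tests rest on the same 6 libraries and are not independent of each other.

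In 6 of the 10 genes (Ppp1r15a, Ddit3, Manf, Xbp1, Sdf2l1 and Calr) every high fat diet library lay below every normal diet library. Such a separation with lower values on the high fat diet was seen in 10.8% of all genes tested. The median log2 fold change of the 10 was -0.27, beside a median that rounds to 0 (-0.000546) for all genes, whose interquartile range lay between -0.20 and 0.17.

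**Figure D1:**
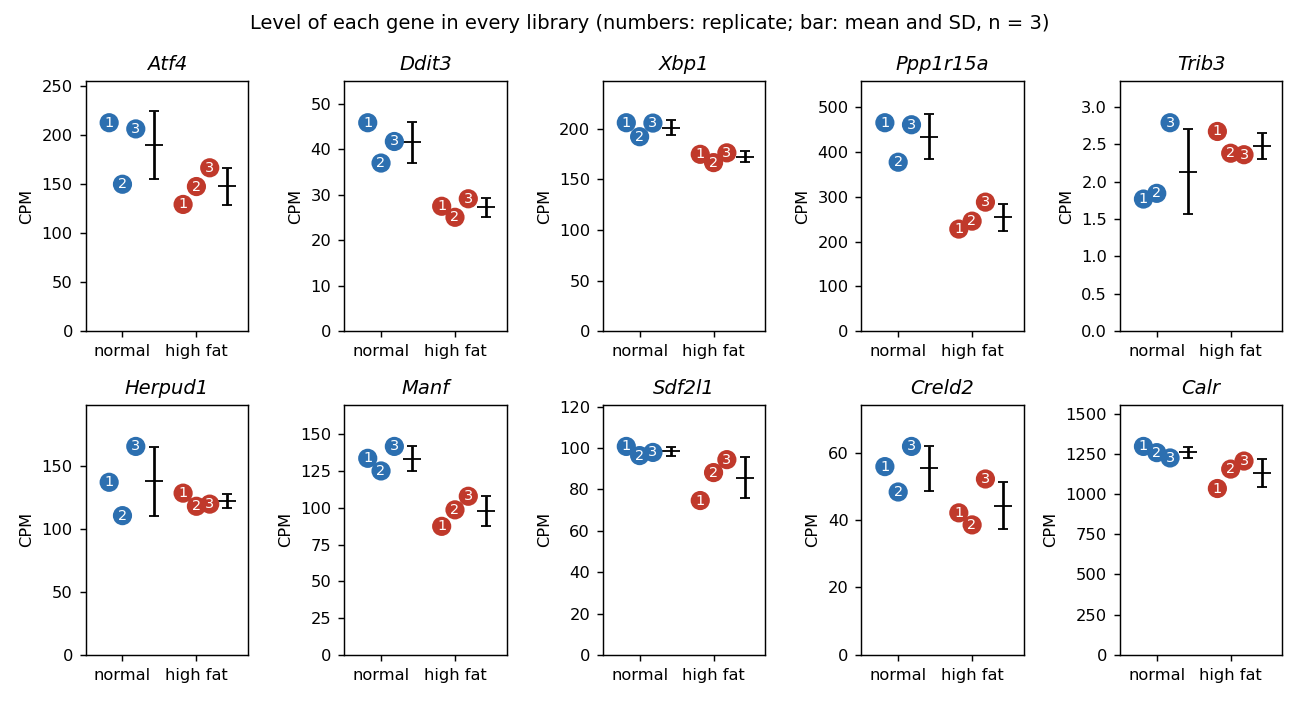
Level in CPM (read counts scaled to the size of the library, vertical axis from 0) of each gene in the 3 normal diet libraries (blue) and the 3 high fat diet libraries (red), numbered by replicate, with the mean and SD beside them. Ppp1r15a and Ddit3 have the widest gaps between the diets, and Trib3 is the only gene with a higher mean on the high fat diet.

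Libraries held between 17470439 and 23610956 counts. The Kupffer cell list, 12 genes that mark the resident macrophages of the liver, was measured in full with no member at 0, and its summed level in CPM (counts scaled to library size) was 19058 to 32285 in normal diet and 21013 to 25852 in high fat diet libraries. Its most abundant genes were Clec4f, a lectin, at 7918 ± 2252 and 6565 ± 813 CPM (normal diet first, SD, n = 3), and Cd5l, a secreted scavenger protein, at 5912 ± 1007 and 6282 ± 776 CPM, with edgeR adjusted p-values of 0.557 and 0.822. Hepatocyte markers, 25 tested of 26 listed, summed to 785 to 3691 CPM in normal diet libraries, against 6940 to 12016 CPM in high fat diet libraries. In RNA from mixed cells, fewer cells of a type and less RNA per cell cannot be told apart.

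Levels were compared between genes on the deposited FPKM scale, which divides by gene length. Calr stood highest, with a mean of 546 FPKM over the 6 libraries, and Trib3 lowest, with 1.14 FPKM. The others lay between: Ppp1r15a at 122, Atf4 at 97.6, Xbp1 at 87.6, Sdf2l1 at 82.9, Herpud1 at 66.6, Manf at 51.4, Creld2 at 36.4 and Ddit3 at 35.3 FPKM. Only Calr and Trib3 were separated from their neighbour in this order by non-overlapping ranges over the libraries. Within single libraries, Ppp1r15a exceeded Atf4, Sdf2l1 exceeded Herpud1, Herpud1 exceeded Manf and Manf exceeded Creld2 in all 6, while Atf4 exceeded Xbp1, Xbp1 exceeded Sdf2l1 and Creld2 exceeded Ddit3 in 4 of 6.

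The promoters of the genes were read for the elements through which the ER and integrated stress responses are known to act. RefSeq promoters on GRCm38.p6, 250 bases before to 50 bases after the start, matched 9 of the 10 genes. The ER stress response element, bound by ATF6 with NF-Y, was searched as CCAAT and CCACG with 9 bases between, its second form as ATTGG and CCACG with 1 base between, the C/EBP-ATF element bound by ATF4 as TGATGNAA, and the core of the UPR element as TGACGTGG, each on both strands. No matches overlapped. The first was found in Creld2 and Calr (2 of 9, and 0.119% of all 32851 promoters), the second in Herpud1 (0.0365% of all), the third in Herpud1 and Trib3 (3.97% of all) and the fourth in none of the 9 (0.676% of all). Elements that lie elsewhere or differ in a letter were not searched. The windows around the exact matches are shown 5′ to 3′ on the gene's strand, with the matched bases in capitals:

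Calr, chr8:84847060-84847108, minus strand: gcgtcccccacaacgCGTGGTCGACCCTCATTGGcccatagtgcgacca

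Creld2, chr15:88819505-88819553, plus strand: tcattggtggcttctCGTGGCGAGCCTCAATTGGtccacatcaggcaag

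Herpud1, chr8:94386302-94386402, plus strand: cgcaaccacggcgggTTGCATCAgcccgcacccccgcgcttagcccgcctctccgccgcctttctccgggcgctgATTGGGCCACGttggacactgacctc

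Trib3, chr2:152344024-152344061, minus strand: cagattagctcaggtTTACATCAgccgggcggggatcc

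The elements in Calr (144 to 162 bases before the start) and Creld2 (108 to 126 bases before) lie in reverse orientation. So do the C/EBP-ATF matches in Herpud1 and Trib3. In Herpud1 both kinds of element are present, the C/EBP-ATF element 105 to 112 and the second ER stress form 42 to 52 bases before the start, and in Trib3 the match lies 15 to 22 bases after it. Their log2 fold changes were -0.15, -0.32, -0.17 and 0.21 in the order printed, and Ppp1r15a and Ddit3, with the largest differences, had no match in this window. A match is a string of letters and was not tested as a binding site.

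Among the transcription factors, Ddit3 differed most. Ddit3 (ENSMUSG00000025408, mm10 chromosome 10, 127290774 to 127296288, plus strand) encodes CHOP, a C/EBP family factor that promotes cell death under lasting ER stress. It was at 45.8, 36.9 and 41.7 CPM in normal diet replicates 1 to 3 and at 27.5, 25.03 and 29.1 CPM in high fat diet replicates 1 to 3. The lowest normal diet library stood 27.0% above the highest high fat diet library, and the log2 fold change was -0.61 ± 0.11 (SE, edgeR adjusted p = 0.0578). Counts per library were between 442 and 908, where counting error is about 3.80% of a value, while the SD within a diet was 7.53% of the mean on the high fat diet and 10.7% on the normal diet. In the GENCODE annotation the exons of Ddit3 share 105 bases, 6.13% of their length, with a second gene model of the same name on the same strand (ENSMUSG00000116429), which was not used here. They also share 68 bases with Mars, a methionyl-tRNA synthetase gene on the opposite strand, and the protocol in the labels names no step that keeps the strand.

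Atf4 (chromosome 15, 80255184 to 80257540, plus strand) encodes the factor whose translation rises when eIF2 alpha is phosphorylated. It was at 213, 150 and 206 CPM in normal diet replicates 1 to 3 and at 129, 148 and 167 CPM in high fat diet replicates 1 to 3. Normal diet replicate 2 lay inside the high fat diet range, so the diets overlapped. The log2 fold change was -0.36 ± 0.16 (SE) with an edgeR adjusted p of 0.279.

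Xbp1 (chromosome 11, 5520659 to 5525893, plus strand), the substrate of IRE1 splicing and a factor that secretory cells such as plasma cells depend on, varied little within the diets (SD of 3.92% of the mean on the normal and 3.02% on the high fat diet). Its levels were 206, 192 and 206 CPM in normal diet replicates 1 to 3 and 175, 167 and 176 CPM in high fat diet replicates 1 to 3. The diets did not overlap, and the gap between their nearest libraries was 9.03%. The log2 fold change was -0.22 ± 0.07 (SE, edgeR adjusted p = 0.161). Other genes of the plasma cell list, summed, gave overlapping ranges of 135 to 235 CPM for the normal diet and 141 to 182 CPM for the high fat diet. The most abundant of these were Prdm1 and Irf4, factors of plasma cell differentiation that macrophages and dendritic cells also express, with 94.3 ± 29.4 and 44.9 ± 8.97 CPM in normal diet libraries, against 65.6 ± 11.4 and 25.8 ± 1.97 CPM in high fat diet libraries (SD, n = 3). Their adjusted p-values in edgeR were 0.332 and 0.0679, against 0.242 and 0.000756 in DESeq2. Of the 8 plasma cell genes tested, Xbp1 among them, DESeq2 called 1 higher and 1 lower, beside 8.38% of all genes called.

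Of the feedback regulators, Ppp1r15a had the largest difference of the 10 genes and Trib3 went the other way. Ppp1r15a (ENSMUSG00000040435, chromosome 7, 45522916 to 45526268, minus strand) encodes GADD34, the inducible subunit that directs protein phosphatase 1 to eIF2 alpha. It was at 466, 377 and 461 CPM in normal diet replicates 1 to 3 and at 228, 246 and 288 CPM in high fat diet replicates 1 to 3. The lowest normal diet library stood 30.9% above the highest high fat diet library. The log2 fold change was -0.77 ± 0.13 (SE, edgeR adjusted p = 0.0517). The call depended on the settings: the adjusted p was 0.0490 with median-ratio scaling, 0.0399 with upper-quartile scaling, 0.0476 without a low-count filter and 0.0477 without the robust prior.

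Ppp1r15b encodes the constitutive counterpart of GADD34. It averaged 180 ± 28.1 CPM in normal diet libraries, against 154 ± 7.57 CPM in high fat diet libraries (SD, n = 3, log2 fold change -0.23, edgeR adjusted p = 0.362). The difference between the responses of the inducible and the constitutive subunit was not tested. Ppp1cb, a catalytic subunit of the phosphatase, averaged 162 ± 12.3 and 150 ± 13.7 CPM in the same order (SD), with an edgeR adjusted p of 0.595.

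Trib3 (chromosome 2, 152337422 to 152344032, minus strand), a pseudokinase that ATF4 and CHOP induce and that inhibits AKT, held only 35 to 56 reads per library. Its levels were 1.77, 1.84 and 2.79 CPM in normal diet replicates 1 to 3 and 2.67, 2.38 and 2.36 CPM in high fat diet replicates 1 to 3. Normal diet replicate 3 was the highest of all 6 libraries and the other normal diet libraries were the lowest. Counting error alone is about 14.6% of a value at this depth, and the log2 fold change was 0.21 ± 0.26 (SE, edgeR adjusted p = 0.707).

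Herpud1 (chromosome 8, 94386438 to 94395377, plus strand) encodes a membrane protein that helps assemble the ER ubiquitin ligase complex for misfolded proteins. It was at 137, 111 and 166 CPM in normal diet replicates 1 to 3 and at 129, 118 and 120 CPM in high fat diet replicates 1 to 3. Both the highest and the lowest of the 6 libraries were on the normal diet. The log2 fold change was -0.17 ± 0.14 (SE, edgeR adjusted p = 0.553), and -0.02 without normal diet replicate 3.

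The 4 luminal proteins all stood lower, with Manf differing most. Manf (ENSMUSG00000032575, chromosome 9, 106838312 to 106891979, minus strand) encodes a secreted factor that binds the chaperone BiP and is released under ER stress. It was at 134, 125 and 142 CPM in normal diet replicates 1 to 3 and at 87.4, 98.6 and 108 CPM in high fat diet replicates 1 to 3. The diets did not overlap, with a gap of 16.0% between their nearest libraries, and the log2 fold change was -0.45 ± 0.10 (SE, edgeR adjusted p = 0.0834). In the GENCODE annotation its exons share 146 bases with Dcaf1 and 166 bases with 4930524O07Rik, both on the opposite strand, out of 3524.

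Creld2 (chromosome 15, 88819646 to 88826681, plus strand), a protein disulphide isomerase-like factor with EGF domains, was at 55.8, 48.3 and 61.8 CPM in normal diet replicates 1 to 3 and at 42.1, 38.6 and 52.2 CPM in high fat diet replicates 1 to 3. High fat diet replicate 3 lay above normal diet replicate 2, so the diets overlapped. The log2 fold change was -0.32 ± 0.14 (SE, edgeR adjusted p = 0.280).

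Sdf2l1 (chromosome 16, 17130138 to 17132383, minus strand), a component of the BiP chaperone cycle, was at 101, 96.4 and 97.9 CPM in normal diet replicates 1 to 3 and at 74.6, 88.2 and 94.4 CPM in high fat diet replicates 1 to 3. Calr (chromosome 8, 84841850 to 84846934, minus strand), the calcium-binding lectin chaperone calreticulin, was at 1296, 1258 and 1224 CPM and at 1034, 1155 and 1205 CPM in the same order. In both genes the diets were separated by a narrow gap, 2.07% for Sdf2l1 and 1.60% for Calr. Sdf2l1 had a log2 fold change of -0.20 ± 0.10 and Calr of -0.15 ± 0.10 (SE), with adjusted p-values of 0.327 and 0.445 in edgeR.

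**Figure D2:**
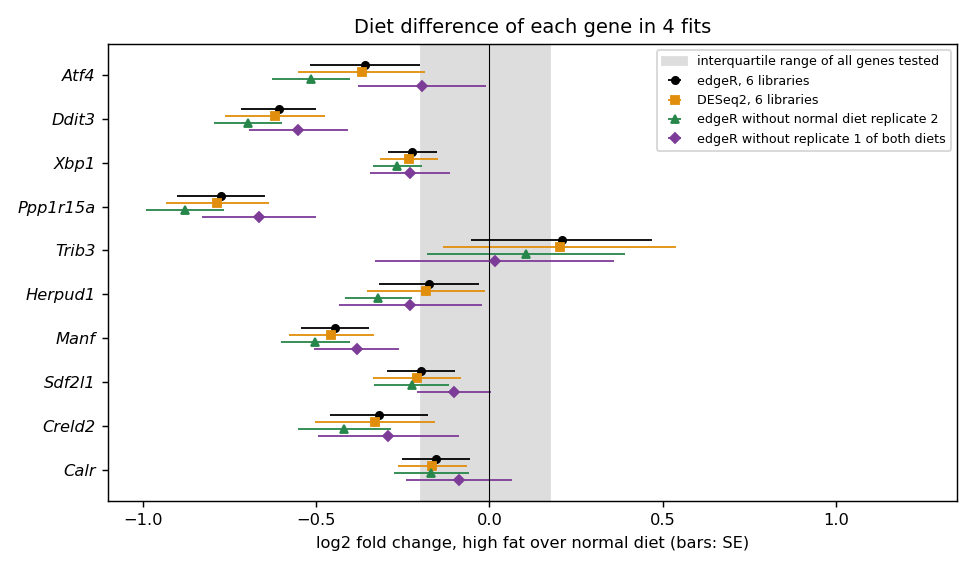
Log2 fold change of each gene, high fat over normal diet (horizontal axis, bars SE), in edgeR and DESeq2 with all libraries and in edgeR with normal diet replicate 2 or replicate 1 of both diets left out. The grey band is the interquartile range of all genes tested. Ppp1r15a (-0.77), Ddit3 (-0.61), Manf (-0.45), Creld2 (-0.32) and Xbp1 (-0.22) lie below it in all 4 fits, Atf4 in 3 of them.

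Libraries of 1 diet tended to keep their order from gene to gene. Normal diet replicate 2 was the lowest normal diet library in 8 of the 10 genes, Trib3 and Calr being the exceptions. High fat diet replicate 3 was the highest high fat diet library in 8 of the 10, all but Herpud1 and Trib3. High fat diet replicate 1 was the lowest of all 6 libraries for Ppp1r15a, Manf, Atf4, Sdf2l1 and Calr, and it also had the highest summed hepatocyte level, 12016 CPM. Several summed marker lists were likewise lowest in replicate 2 among normal diet libraries and highest in replicate 3 among high fat diet libraries. Among them were the immediate early genes described below (12502 and 11424 CPM) and the monocyte markers (655 and 1995 CPM). The part of hepatocyte RNA in the levels of the 10 genes was looked at only through the fit with a hepatocyte score given below.

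**Figure D3:**
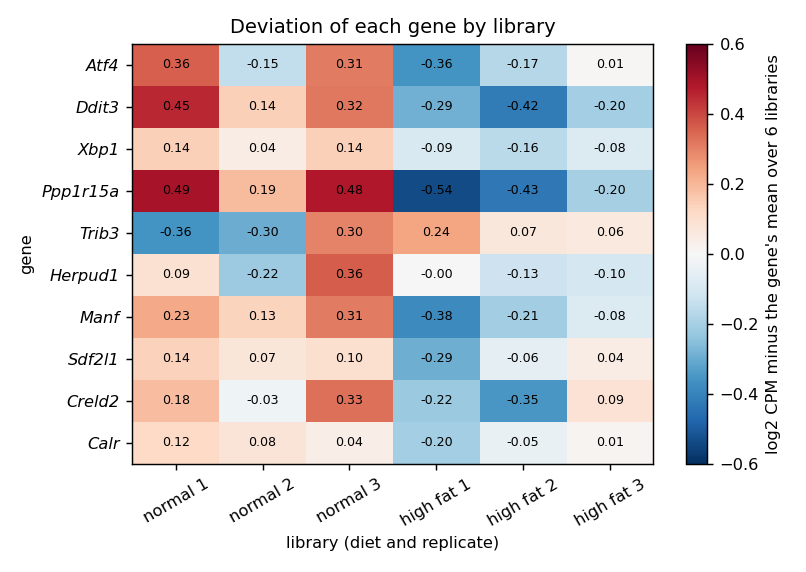
Deviation of each gene's log2 CPM from its mean over the 6 libraries, with libraries in columns and genes in rows, red for higher and blue for lower. Ppp1r15a spans from -0.54 in high fat diet replicate 1 to 0.49 in normal diet replicate 1, and normal diet replicate 2 is the palest or lowest normal diet column for most genes.

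Leaving out normal diet replicate 2 brought 4 of the 10 genes past the threshold, all lower: Ppp1r15a, Ddit3, Manf and Atf4, with edgeR adjusted p-values of 0.0101, 0.0135, 0.0306 and 0.0410. In that setting 5.77% of all genes tested were called lower. With any other single library left out edgeR called none of the 10, and the adjusted p of Ppp1r15a lay between 0.0945 and 0.170. DESeq2 called Ppp1r15a and Ddit3 lower whichever library was left out, with adjusted p-values of at most 0.00292 and 0.0240. Of all genes tested it called lower 204 of 14568 without high fat diet replicate 1, the fewest. The most were 1387 of 14669, without normal diet replicate 2. DESeq2 lost Manf without high fat diet replicate 1, high fat diet replicate 2 or normal diet replicate 1 (adjusted p = 0.0630, 0.0650 and 0.0698).

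Other genes of the pathways lay on both sides of 0, some as far from it as the 10 genes, and the groups were not tested against each other. In 9 lists written from textbook knowledge, edgeR called none of the 143 other genes tested, where it called 0.863% of all genes. By an unadjusted p under 0.05, 11 stood higher and 11 lower, beside 1517 higher and 1221 lower of all 14361 genes. The median log2 fold change over the 143 was -0.02. Without normal diet replicate 2, edgeR called 10 of these 143, 3 higher and 7 lower, or 6.99% against 9.06% of all genes tested in that setting. With all libraries DESeq2 called 5 of them, or 3.5%, beside 8.38% of all genes. The 5 are named here after their values were seen. They were Shmt2, the mitochondrial serine hydroxymethyltransferase of one-carbon metabolism, and the factor Atf5, both higher, and the stress sensor Sesn2, the AP-1 repressor Jdp2 and the tryptophanyl-tRNA synthetase Wars, an interferon-inducible gene, all lower. Atf5 averaged 12.6 ± 4.63 CPM in normal diet libraries, against 30.4 ± 10.1 CPM in high fat diet libraries, Shmt2 33.4 ± 2.25 and 47.4 ± 4.82 CPM, and Sesn2 94.8 ± 15.6 and 64.7 ± 6.55 CPM (SD, n = 3). Their edgeR adjusted p-values were 0.127, 0.0711 and 0.10, against 0.00669, 0.00715 and 0.0152 in DESeq2. Jdp2 stood at a log2 fold change of -0.83 ± 0.24 and Wars at -0.67 ± 0.15 (SE), with adjusted p-values of 0.147 and 0.0844 in edgeR.

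ATF4 and CHOP targets, 25 tested of 29 listed, were split, with 13 positive and 12 negative log2 fold changes and a median of 0.02. The most abundant were Atf3, a stress-induced factor also counted among the immediate early genes, with 603 ± 90.1 CPM in normal diet and 531 ± 191 CPM in high fat diet libraries, and Slc3a2, the heavy chain of amino acid exchangers, with 484 ± 81.1 and 412 ± 16.2 CPM (SD, n = 3). Neither passed in edgeR, with adjusted p-values of 0.743 and 0.393. The 12 aminoacyl-tRNA synthetases, which ATF4 induces in part, had 8 positive values and a median of 0.06. Their most abundant members, Nars and Eprs, stood at -0.02 ± 0.08 and -0.30 ± 0.18 on the log2 scale (SE), with adjusted p-values of 0.942 and 0.414 in edgeR. Of 16 genes of the PERK arm and the eIF2 machinery, 10 were negative and the median was -0.03.

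Other ER chaperones were split in direction as well. Of 24 other ER folding enzymes and chaperones 13 were negative, with a median of -0.06. Hspa5, which encodes BiP, the main Hsp70 of the ER and the textbook readout of the response, averaged 1525 ± 157 CPM in normal diet libraries, against 1188 ± 174 CPM in high fat diet libraries (SD), with a log2 fold change of -0.36 ± 0.14 (SE, n = 3, edgeR adjusted p = 0.231). Hsp90b1, the ER Hsp90, averaged 751 ± 30.2 and 625 ± 57.6 CPM, and Pdia3, the disulphide isomerase partner of calreticulin, 939 ± 60.3 and 849 ± 56.7 CPM (SD, n = 3). Their adjusted p-values in edgeR were 0.219 and 0.474. In the ATF6 arm, 13 genes with Hspa5 and Hsp90b1 among them, 7 were positive and the median was 0.01.

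The IRE1 and XBP1 arm had 16 of 24 tested genes negative and a median of -0.07, with Edem1, a lectin of ER-associated degradation, and Ssr3, a translocon subunit, at -0.15 ± 0.12 and -0.09 ± 0.08 on the log2 scale (SE), and adjusted p-values of 0.536 and 0.572 in edgeR. The list of ER-associated degradation had 12 positive of 23 and a median that rounds to 0 (0.00356), and Vcp, the ATPase that extracts its substrates, averaged 248.9 ± 14.1 CPM in normal diet libraries, against 278 ± 11.8 CPM in high fat diet libraries (SD, n = 3), with an edgeR adjusted p of 0.327. Relatives of Trib3 and GADD34 and the C/EBP and ATF factors were negative in 7 of 10, with a median of -0.11, and the most abundant besides Atf3 was Cebpa, with 382 ± 170 and 514 ± 63.8 CPM (SD, n = 3) and an edgeR adjusted p of 0.487. The mitochondrial unfolded protein response was evenly split, 6 of 12 negative, and its chaperones Hspa9 and Hspd1 stood at -0.08 ± 0.09 and -0.11 ± 0.08 on the log2 scale (SE), with adjusted p-values of 0.684 and 0.532 in edgeR.

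**Figure D4:**
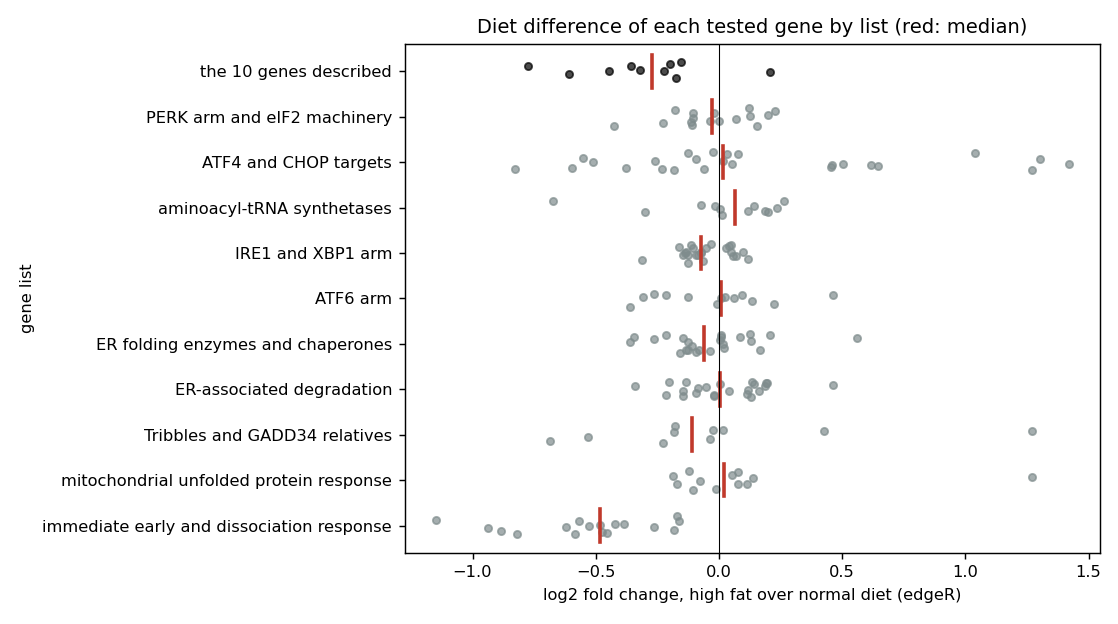
Log2 fold change, high fat over normal diet (horizontal axis, edgeR), of every tested gene in each list, 1 point per gene, with the median in red and the 10 genes left out of the other lists. The 10 genes have a median of -0.27, the pathway lists lie between -0.11 and 0.06, and the immediate early genes have a median of -0.48.

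Immediate early genes, which stress and tissue dissociation switch on quickly, stood lower on the high fat diet as Ppp1r15a and Ddit3 did. The list called immediate early here also holds heat shock genes of the dissociation response. All 17 of that list were negative, beside 50.1% of all genes tested, and the median log2 fold change was -0.48. By an unadjusted p under 0.05 in edgeR 12 of the 17 stood lower, beside 8.5% of all genes. The list's summed level was 12502 to 13765 CPM in normal diet and 8782 to 11424 CPM in high fat diet libraries, and no member was at 0. One gene passed in edgeR, the zinc finger factor Egr1, named after its values were seen, which fell from 219 ± 16.2 CPM on the normal diet to 124 ± 13.3 CPM (SD, n = 3), with an edgeR adjusted p of 0.0321. This call was lost with any single library but normal diet replicate 2 left out. The most abundant members, the phosphatase Dusp1 and the mRNA-decay factor Zfp36, averaged 1773 ± 178 and 1546 ± 151 CPM in normal diet libraries, against 1269 ± 277 and 1374 ± 301 CPM in high fat diet libraries (SD, n = 3). Their adjusted p-values in edgeR were 0.197 and 0.635.

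With the immediate early score, the list's mean log2 CPM per library, as a covariate, the log2 fold change of Ppp1r15a was -0.16 ± 0.22 against -0.77 ± 0.13 without it, that of Ddit3 -0.15 ± 0.23 against -0.61 ± 0.11 and that of Manf -0.09 ± 0.22 against -0.45 ± 0.10 (SE). Atf4, Creld2, Herpud1 and Sdf2l1 turned positive, at 0.42, 0.46, 0.34 and 0.03. With the hepatocyte score instead, Ppp1r15a was at -0.59 ± 0.19, Ddit3 at -0.44 ± 0.16 and Manf at -0.38 ± 0.16 (SE), and Trib3 turned negative, at -0.15. None of the 10 passed in either fit, and edgeR called 0 of all genes in both, with 1128 and 1009 genes at an unadjusted p under 0.05. Neither score overlapped between the diets, so score and diet cannot be told apart in these fits. Without replicate 1 of both diets, which lie at the ends of the hepatocyte score, Ppp1r15a was at -0.66 ± 0.16 and Ddit3 at -0.55 ± 0.14 (SE, edgeR adjusted p = 0.267 and 0.282).

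Summed markers of other cell types differed between the diets too. Monocyte markers were at 655 to 970 CPM in normal diet and 1635 to 1995 CPM in high fat diet libraries, and neutrophil markers at 206 to 222 and 305 to 357 CPM. Stellate and stromal markers, at 70.4 to 226 and 44.9 to 60.5 CPM in the same order, were separated the other way. Cholangiocyte markers were at 14.5 to 44.1 and 83.5 to 180 CPM, although 4 of the 5, all but Spp1, had negative log2 fold changes. Single genes also weigh heavily in the monocyte and neutrophil sums. Fn1 of the first averaged 278 ± 64.0 CPM in normal diet and 964 ± 168 CPM in high fat diet libraries (SD, n = 3). Csf3r of the second averaged 171 ± 11.9 and 202 ± 4.91 CPM. Of 9 monocyte markers 8 stood higher (median 1.16 on the log2 scale), and of 11 neutrophil markers 10 (median 2.52), beside 7173 of all 14361 genes. The ranges overlapped for sinusoidal endothelium (1502 to 3771 and 1232 to 1660 CPM), conventional dendritic cells (218 to 420 and 196 to 225 CPM), plasmacytoid dendritic cells (323 to 394 and 294 to 330 CPM), T and NK cells (31.3 to 84.1 and 27.4 to 43.8 CPM) and B cells (101 to 121 and 113 to 142 CPM). Although the summed conventional dendritic cell ranges overlapped, each of the 8 markers stood lower on the high fat diet (median -0.80 on the log2 scale). In 3 of these 8 the diets did not overlap. EdgeR called 1 of the 8 lower and DESeq2 called 3. With any single high fat diet library or normal diet replicate 1 left out, edgeR called 0 of the 8. Without normal diet replicate 2 it called 7. All 14918 genes of the table hold counts, so a marker without any reads could not be seen in it. Of the 8 T and NK cell markers listed, 6 were tested, and the others did not enter the sum. The part of the cell types of this paragraph in the levels of the 10 genes was not tested.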

How the data were processed

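The authors deposited 1 table with raw read counts per gene for 6 libraries, a size-factor normalised signal, FPKM values, and their own log2 fold change with a p-value and an adjusted p-value. The submitters' processing notes name the mm10 build, the aligners STAR and HISAT2, the counting tools StringTie and featureCounts, DESeq, edgeR and STAR-Fusion. Versions, order and settings of these are not stated in the sources read. Coordinates are those of the deposited table.

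The counts were tested with edgeR 4.0.16 in R 4.3.3 (TMM scaling, default low-count filter, quasi-likelihood test in its current form with a robust prior, Benjamini-Hochberg adjustment over 14361 genes, threshold 0.05). CPM are relative to the TMM-scaled library size. The biological coefficient of variation was 20.93%. The SE was taken as the size of the log2 fold change over the root of the F statistic. DESeq2 1.42.0 and limma 3.58.1 were alternatives. The fit was also run on simulated data, which were not matched here to the noise or effect sizes of these libraries. No conclusion on the power or error rate of the tests above is drawn from that run. Each library was taken as 1 mouse, since the design text counts mice. Intervals of depth cover counting error only.

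The 10 genes and all lists were chosen with earlier results of these data known. Named from each of 9 pathway lists were the 3 genes of smallest p where one passed, otherwise the 2 most abundant. From each of the 13 marker lists the 2 most abundant could be named. Only those of the Kupffer cell, plasma cell and immediate early lists are, with Spp1 (cholangiocyte), Fn1 (monocyte) and Csf3r (neutrophil). Overlapping exons were read from GENCODE M21. Its exons span 1713 bases for Ddit3 and 3524 for Manf, against deposited gene lengths of 969 and 2247. Whether the shared bases entered the counts is therefore not known. Left out above were overlaps of 13 bases of Ddit3 with Gm4189, 12 of Ppp1r15a with Tulp2 and 14 of Manf with Rbm15b, the last on the same strand. Total counts per library are given with the results.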

Additional observations from a re-analysis of the deposited data

How the results depend on the processing

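With 3 libraries per diet, 1 library decides several calls, and levels below about 50 reads (Trib3) carry large counting error. No paired analysis was possible because the labels give each library a code of its own and no replicate number that the diets share. The count of genes changed by diet was 124 (92 higher, 32 lower). It was 78 with a filter of 5 CPM in 3 samples, 1204 in DESeq2, 81 in limma voom, and 0 with the hepatocyte score, with the immediate early score, or without replicate 1 of both diets (1399 genes at an unadjusted p under 0.05). Leaving out 1 library gave between 0 and 1329, the highest without normal diet replicate 2, and in DESeq2, an alternative added after seeing the data, 537, 750 and 746 without high fat diet replicates 1, 2 and 3 and 832, 2529 and 1158 without normal diet replicates 1, 2 and 3. Of the 10 genes edgeR called 0, and 1 (Ppp1r15a) with median-ratio scaling, upper-quartile scaling, no low-count filter or no robust prior. In these 4 settings it called 42 of 14361, 44 of 14361, 46 of 14918 and 48 of 14361 genes lower. DESeq2 called 3 of the 10, and 477 of 14361 genes lower. Leaving out 1 library gave between 0 and 4 in edgeR and between 2 and 6 in DESeq2. Over all genes these fits called 0 to 847 lower in edgeR and 204 to 1387 in DESeq2. The share of lower calls was larger under DESeq2 (477 of 1204) and without normal diet replicate 2 (847 of 1329).

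Signs turned mainly with the scores as covariates, where nothing was called. With the immediate early score the log2 fold changes were 0.42 for Atf4, 0.46 for Creld2, 0.34 for Herpud1, 0.03 for Sdf2l1, 1.17 for Atf3, -0.56 for Cd5l, -0.65 for Cebpa, 0.15 for Dusp1, 0.32 for Edem1, 0.29 for Hspa5, 0.23 for Hspa9, 0.23 for Hspd1, 0.32 for Ppp1cb, 0.20 for Ppp1r15b, 0.97 for Prdm1, 0.27 for Slc3a2, 0.07 for Ssr3, 0.07 for Wars and 0.60 for Zfp36. With the hepatocyte score they were -0.15 for Trib3, 0.03 for Atf3, -0.07 for Cebpa, 0.12 for Edem1, 0.14 for Eprs, 0.09 for Hspa9, 0.08 for Nars, 0.03 for Pdia3, 0.06 for Ppp1cb, 0.08 for Ppp1r15b, 0.04 for Slc3a2, 0.03 for Ssr3 and 0.08 for Zfp36. Nars, near 0 throughout, was at 0.02 without replicate 1 of both diets and between -0.08 and 0.01 with 1 library left out, at 0.01 and 0.00 without normal diet replicates 1 and 2 (0.01 and 0.01 in DESeq2). Cd5l was between -0.04 and 0.19, with -0.02 when high fat diet replicate 2 was left out and -0.04 when normal diet replicate 3 was (-0.02 and -0.06 in DESeq2). The cause of these changes was not tested.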
